A study of Mus musculus with 22 samples.

Results

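Transcripts of 9 genes of the retinoic acid pathway were followed in whole testes of WT and MLXKO mice. The genes were taken by symbol from the 17931 gene symbols of the deposited count table: *Rdh10*, *Aldh1a1* and *Aldh1a2* of retinoic acid synthesis, *Crabp1* and *Cyp26b1* of its binding and breakdown, the receptor genes *Rara*, *Rarg* and *Rxrb*, and the target gene *Stra8*. All 9 had counts in every library and passed the filter on low counts that left 14640 genes for testing.

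Retinoic acid is made inside the testis from retinol, which is oxidised first to retinaldehyde and then to retinoic acid, and the CYP26 enzymes break it down again. It acts through nuclear receptors, in which a retinoic acid receptor (RAR) pairs with a retinoid X receptor (RXR) on DNA. In the seminiferous tubule it is known for driving the differentiation of spermatogonia and the entry of germ cells into meiosis, and *Stra8* is switched on at both steps.

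The study asked how loss of MLX, a bHLHLZ transcription factor of the MYC network that pairs with the glucose-sensing factor MondoA, changes the testis transcriptome. The 3 MLXKO males carried a constitutive *Mlx* deletion of exons 3 to 6, which encode its DNA-binding region,, targeted in 129S4 embryonic stem cells and passed on after the Meox2-Cre deleter allele had been bred away. Their 3 WT littermates were proven breeders, and all mice were 7 months old. The animals form 3 littermate pairs that carry the same number in the labels, so WT1 and KO1 belong together. As the deletion was present in every tissue from the embryo on, these samples do not separate its action in germ cells from that in somatic cells. The sources used here do not give which targeted clone the animals descend from.

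The libraries held 16674678 to 19742726 counts. *Mlx* itself had 128, 96 and 98 counts in WT1, WT2 and WT3 and 94, 109 and 102 in KO1, KO2 and KO3, but the deposited count does not separate the deleted exons from the retained ones and so does not check the labels. Of all genes tested, 24.8% were higher and 20.6% lower in MLXKO testes at an adjusted p under 0.05 (edgeR's quasi-likelihood test, Benjamini-Hochberg over all genes tested), or 45.4% in either direction. All 12 Sertoli cell markers and all 8 Leydig cell markers tested were higher in MLXKO testes, and all 12 markers of elongating spermatids were lower, with their sum at 29160 to 30170 CPM (counts scaled to a common library total) in WT and 18010 to 21660 CPM in MLXKO libraries. In whole testes, fewer cells of a type and less RNA per cell cannot be told apart.

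*Aldh1a1*, *Cyp26b1* and *Rara* rose in MLXKO testes, *Rdh10* fell, and the other 5 members did not pass the test. Thus 3 of 9 were higher, against 24.8% of all genes tested, and 1 of 9 was lower, against 20.6%. In 6 of 9 the WT and MLXKO values did not overlap, as in 56.2% of all genes tested. The median log2 fold change (LFC, MLXKO against WT) of the 9 members was 0.16, and that of all genes tested 0.03. The member counts are therefore near those of the table as a whole, and what follows describes single genes. CPM here use library sizes adjusted by TMM, edgeR's correction for RNA composition.

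**Figure D1:**
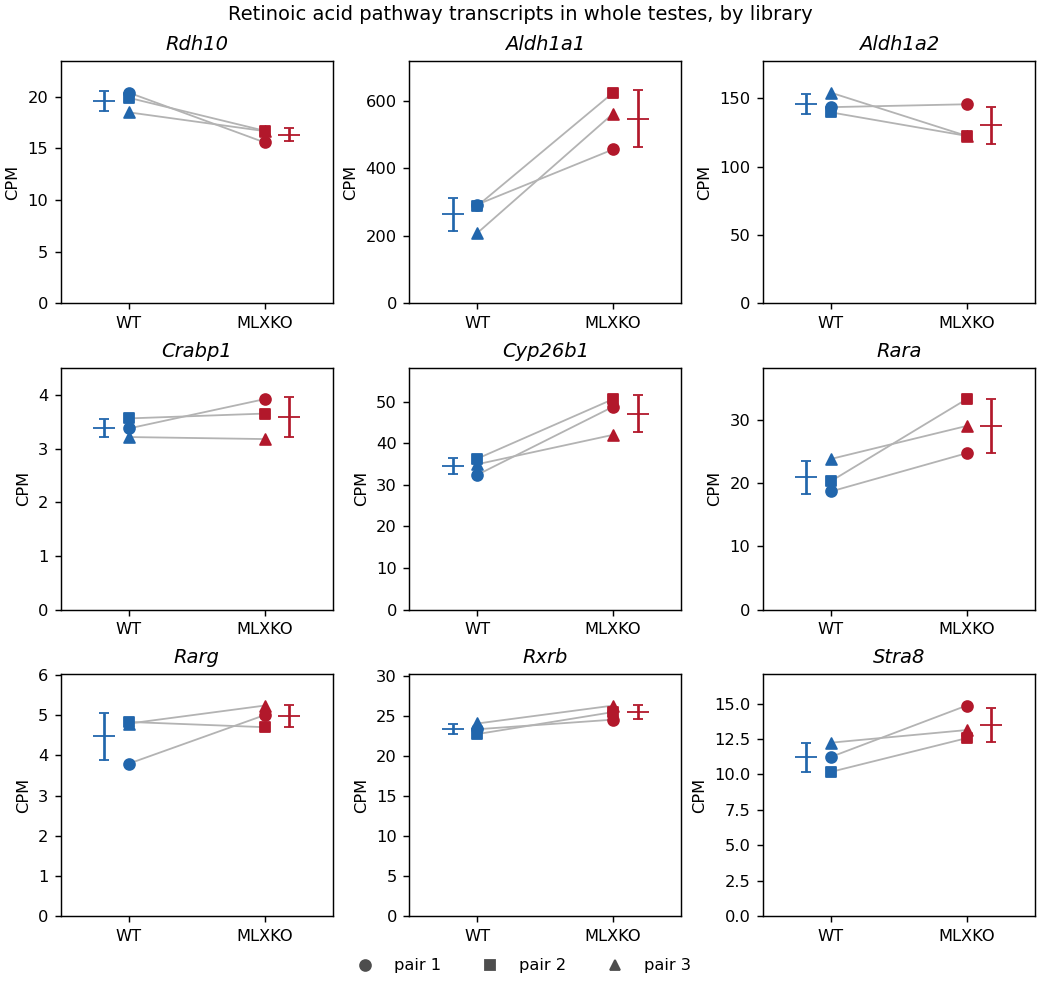
Level of each of the 9 members in CPM (y axis, from 0) in the 3 WT and 3 MLXKO libraries, with grey lines joining littermates and a bar for the group mean and its SD. *Aldh1a1* shows the widest gap, 208 to 293 CPM against 457 to 625 CPM, while the values of *Aldh1a2*, *Crabp1* and *Rarg* overlap between genotypes.

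*Rdh10* encodes the retinol dehydrogenase that makes retinaldehyde from retinol, the first step of synthesis. It lies on the plus strand of chromosome 1 of GRCm38 (mm10), at chr1:16105882-16132550. Its level was 20.4, 19.9 and 18.5 CPM in WT1, WT2 and WT3, and 15.6, 16.7 and 16.7 CPM in KO1, KO2 and KO3. Every MLXKO library lay below every WT library, and the decrease was seen in 3 of 3 pairs. From 19.6 ± 0.989 CPM in WT to 16.3 ± 0.643 CPM in MLXKO testes (SD, n = 3 each), *Rdh10* fell by 0.26 on the log2 scale (SE 0.08, adjusted p = 0.0198 by the edgeR fit), to 0.832 of the WT level.

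The call for *Rdh10* rested on the fit. With littermates entered as a replicate block, the adjusted p was 0.0243 in edgeR and 0.132 in DESeq2. It was 0.0736 without WT1 and 0.0629 without WT2 (edgeR). With library size alone in place of TMM, the LFC was -0.12 (adjusted p = 0.268, edgeR). That scaling moved the median LFC of all genes up by 0.14, and relative to that median *Rdh10* stood at -0.29 under both scalings.

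*Aldh1a1* had the largest change among the members. The enzyme oxidises retinaldehyde to retinoic acid, and its transcript is known from Sertoli and Leydig cells. The gene is on the plus strand at chr19:20492583-20643463. Its level was 293, 289 and 208 CPM in WT1, WT2 and WT3, and 457, 625 and 563 CPM in KO1, KO2 and KO3. All 3 MLXKO libraries were higher than all WT libraries, with KO1 the lowest of them and WT3 the lowest of all. The mean rose from 264 ± 47.7 to 548 ± 85.2 CPM (mean ± SD of 3 libraries each), which is an LFC of 1.06 (SE 0.13, adjusted p = 1.19e-04 by edgeR) or 2.08-fold (95% interval 1.70 to 2.54). By pair, the log2 difference was 0.64, 1.11 and 1.43, and 5.08% of all genes tested had a higher LFC.

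A close paralog, *Aldh1a7*, lies next to *Aldh1a1* on the minus strand at chr19:20692953-20727556. Of the 4934 stretches of 50 bases in the exons of *Aldh1a1*, 151 (3.06%) also occur unchanged in *Aldh1a7*. Few reads of the deposited length could thus match both genes exactly. Stretches that match with mismatches were not counted, so the sharing of reads between the 2 genes may be larger. *Aldh1a7* was itself at 9.54, 11.8 and 10.2 CPM in WT1, WT2 and WT3 and at 25.4, 36.6 and 32.1 CPM in KO1, KO2 and KO3, without overlap. Its LFC was 1.58 (SE 0.13, adjusted p = 1.19e-05 by edgeR). The counts assigned to the 2 neighbouring paralogs thus both rose.

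*Aldh1a2*, the retinaldehyde dehydrogenase of germ cells, best known from spermatocytes, did not share this rise. The gene is at chr9:71215789-71296243 on the plus strand. It stood at 143, 140 and 154 CPM in WT1, WT2 and WT3 and at 146, 122 and 122 CPM in KO1, KO2 and KO3. KO1 lay within the WT range and the other MLXKO libraries lay below it. The means were 146 ± 7.47 and 130.1 ± 13.4 CPM (mean ± SD of 3 libraries each), which is an LFC of -0.16 (SE 0.07, 95% interval -0.32 to -0.01, adjusted p = 0.0817 by edgeR). The size moved with the fit. It was -0.25 without KO1 (adjusted p = 0.00159 by edgeR) and -0.19 in DESeq2 (adjusted p = 0.0400), but -0.12 without KO2 and -0.11 without KO3 (adjusted p = 0.278 and 0.279 by edgeR), and -0.03 with library size alone (adjusted p = 0.757 by edgeR).

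Compared per kilobase of exon, the retinaldehyde dehydrogenases changed in make-up. The lengths used are unions of all annotated exons, 4937 bases for *Aldh1a1* and 2264 for *Aldh1a2*. Which transcripts are made in these testes was not measured. Orders and shares between genes, here and below, therefore hold for these lengths only. In WT testes *Aldh1a2*, at 64.4 ± 3.30 CPM per kb, was above *Aldh1a1*, at 53.4 ± 9.67 CPM per kb, with no overlap over the 3 libraries. In MLXKO testes the order was the opposite, with *Aldh1a1* at 111 ± 17.2 and *Aldh1a2* at 57.5 ± 5.90 CPM per kb, again without overlap. The share of *Aldh1a1* in the summed level of *Aldh1a1*, *Aldh1a2*, *Aldh1a3* and *Aldh1a7* was 46.3%, 46.1% and 36.3% in WT1, WT2 and WT3 and 54.3%, 63.2% and 61.5% in KO1, KO2 and KO3. The sum itself went from 124 ± 6.51 to 185 ± 14.9 CPM per kb (SD, n = 3 each). *Aldh1a7* was included as a paralog of *Aldh1a1*, and whether its enzyme oxidises retinaldehyde was not measured. It made up 4.11% ± 0.463 of the sum in WT and 8.14% ± 0.842 in MLXKO testes (SD, n = 3 each). *Aldh1a3*, a further enzyme of the family, made up 0.804% ± 0.172 of the sum in WT and 0.891% ± 0.105 in MLXKO testes (SD, n = 3 each).

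**Figure D2:**
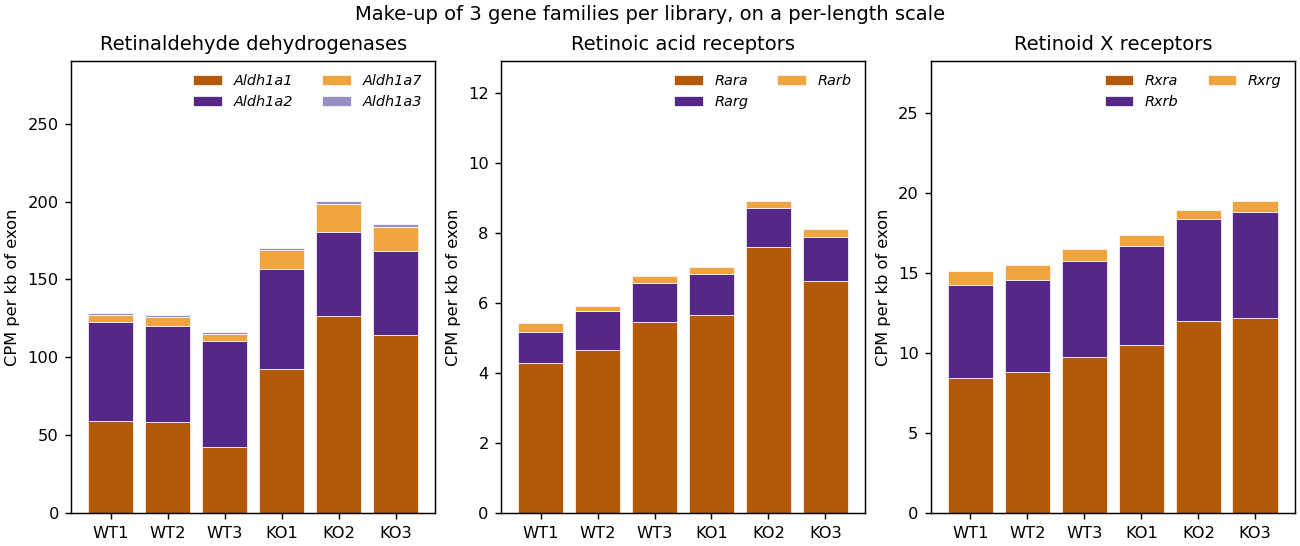
Stacked levels in CPM per kb of exon (y axis, from 0) of the retinaldehyde dehydrogenase, RAR and RXR genes in each of the 6 libraries (x axis). Lengths are unions of annotated exons, and the relative size of segments depends on them. The *Aldh1a1* segment is the smaller of the 2 main ones in the WT libraries and the larger in the MLXKO libraries, while *Rara* and *Rxra* lead their families in all 6.

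*Crabp1* encodes a cytosolic protein that holds retinoic acid and is known from spermatogonia. With 56 to 76 counts per library it was the least counted member. Its level was 3.37, 3.56 and 3.21 CPM in WT1, WT2 and WT3 and 3.92, 3.65 and 3.18 CPM in KO1, KO2 and KO3. The groups overlapped, and the LFC was 0.08 (SE 0.16, 95% interval -0.27 to 0.44, adjusted p = 0.697 by edgeR), with 0.02 without KO1 and 0.17 without KO3. These counts, from 3 animals a group, are compatible with any true change within that interval. The gene is at chr9:54764748-54773110 on the plus strand.

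*Cyp26b1* encodes the CYP26 enzyme that clears retinoic acid, and peritubular myoid cells are a known source of it in the testis. It is on the minus strand at chr6:84571414-84593908. Its level was 32.4, 36.3 and 35.0 CPM in WT1, WT2 and WT3 and 48.8, 50.6 and 42.0 CPM in KO1, KO2 and KO3. All MLXKO libraries were above all WT libraries. The mean went from 34.6 ± 1.97 to 47.2 ± 4.52 CPM (mean ± SD of 3 libraries each), which is an LFC of 0.45 (SE 0.08, adjusted p = 9.78e-04 by edgeR) or 1.37-fold (95% interval 1.21 to 1.54), with an increase in 3 of 3 pairs. The other CYP26 genes were scarce: *Cyp26a1* had means of 1.61 ± 0.220 and 1.27 ± 0.332 CPM (SD, n = 3 each; LFC -0.33, adjusted p = 0.328 by edgeR), and *Cyp26c1* had too few counts to be tested. Synthesis by *Aldh1a1* and breakdown by *Cyp26b1* were thus both represented by more transcript.

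Of the receptor genes, *Rara*, which encodes the RAR known from Sertoli cells, rose. It lies on the plus strand at chr11:98927800-98974942, 2.11 Mb from *Mlx*. Its level was 18.7, 20.3 and 23.8 CPM in WT1, WT2 and WT3 and 24.7, 33.2 and 29.0 CPM in KO1, KO2 and KO3. WT3 and KO1 came within 1 CPM of each other, but the groups did not overlap. The means were 20.9 ± 2.62 and 29.0 ± 4.27 CPM (mean ± SD of 3 libraries each), which is an LFC of 0.47 (SE 0.12, adjusted p = 0.00719 by edgeR) or 1.39-fold (95% interval 1.16 to 1.66), higher in 3 of 3 pairs.

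Windows before RefSeq start sites of *Rara* are shown because they held motifs searched for, not because the gene rose more than others. Its remaining windows held none and are not printed. MLX and its partners bind E-boxes (CACGTG). RAR and RXR bind AGGTCA half-sites and variants of them (the letters GGGTCA, or AGTTCA, or else GGTTCA). The 250 bases before each start were searched on both strands, with overlaps allowed. Of the 9 members, 8 had windows in the RefSeq table of GRCm38.p6, 14 in all. *Rdh10* had no entry. Only the second *Rara* window, chr11:98937468-98937717, held an E-box, 10 to 5 bases before that start. Its last 20 bases are exonic in GENCODE for a *Rara* transcript that begins further upstream. The third, chr11:98939461-98939710, held 4 half-site variants. Both are given 5′ to 3′ on the plus strand with the motifs in capitals:
Rara start 2: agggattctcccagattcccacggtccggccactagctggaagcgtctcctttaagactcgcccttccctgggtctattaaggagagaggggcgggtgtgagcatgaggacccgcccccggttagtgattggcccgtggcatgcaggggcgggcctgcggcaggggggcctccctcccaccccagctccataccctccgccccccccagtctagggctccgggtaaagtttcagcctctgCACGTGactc
Rara start 3: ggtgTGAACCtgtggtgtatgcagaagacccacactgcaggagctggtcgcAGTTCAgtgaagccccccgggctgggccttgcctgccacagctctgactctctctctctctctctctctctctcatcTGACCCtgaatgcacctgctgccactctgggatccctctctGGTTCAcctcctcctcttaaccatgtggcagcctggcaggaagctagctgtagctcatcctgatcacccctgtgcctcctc

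Among 32817 windows of that length in the table, 6.02% held the E-box and 38.6% held at least 1 half-site or variant. Of the 14 member windows, 1 held the E-box and 4 (28.6%) a half-site or variant, in *Stra8*, *Rara*, *Rarg* and *Aldh1a1*. Half-sites in direct repeat with 1, 2 or 5 bases between them occurred in 0.16%, 0.17% and 0.09% of all windows and in 0 of the 14. Which start is used in these testes was not measured, and a match of letters is not a binding site. The window before the second start of *Aldh1a1*, the member with the largest change, at chr19:20601718-20601967, is given for comparison, with its single half-site variant on the minus strand in capitals:
Aldh1a1 start 2: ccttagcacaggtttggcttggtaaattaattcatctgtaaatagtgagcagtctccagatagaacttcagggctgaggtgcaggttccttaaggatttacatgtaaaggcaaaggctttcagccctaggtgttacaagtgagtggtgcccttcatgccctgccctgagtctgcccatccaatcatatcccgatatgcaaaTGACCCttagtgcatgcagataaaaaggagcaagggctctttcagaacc

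*Rarg*, the RAR gene known from spermatogonia, is on the minus strand at chr15:102234938-102257522 and had 72 to 99 counts per library. It stood at 3.80, 4.83 and 4.79 CPM in WT1, WT2 and WT3 and at 5.0, 4.70 and 5.24 CPM in KO1, KO2 and KO3. WT1 was low and the other 5 libraries lay close together, with overlapping groups. The LFC was 0.16 (SE 0.15, 95% interval -0.17 to 0.49, adjusted p = 0.410 by edgeR), and 0.05 without WT1 (adjusted p = 0.832 by edgeR).

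*Rxrb*, an RXR gene known from Sertoli cells, is on the plus strand at chr17:34031812-34038403. Its level was 23.3, 22.7 and 24.0 CPM in WT1, WT2 and WT3 and 24.5, 25.4 and 26.3 CPM in KO1, KO2 and KO3. The MLXKO values were all above the WT values, by little, and higher in 3 of 3 pairs. The LFC was 0.12 (SE 0.07, 95% interval -0.03 to 0.27, adjusted p = 0.178 by edgeR). It passed the threshold with library size alone (LFC 0.26, adjusted p = 0.0178 by edgeR), a scaling under which 36.5% of all genes tested were higher and 8.66% lower.

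The remaining receptor genes were *Rxra*, *Rxrg* and *Rarb*. *Rxra* rose from 49.2 ± 3.68 to 63.2 ± 5.08 CPM (mean ± SD of 3 libraries each), which is an LFC of 0.36 (SE 0.07, adjusted p = 0.00229 by edgeR), without overlap. *Rarb* had 1.05 ± 0.305 CPM in WT and 1.12 ± 0.180 CPM in MLXKO testes (SD, n = 3 each), and *Rxrg* 1.92 ± 0.236 and 1.48 ± 0.246 CPM (SD, n = 3 each). Neither passed the test, with LFCs of 0.07 and -0.36 (adjusted p = 0.855 and 0.221 by edgeR). Per kilobase, *Rara* accounted for 79.2% ± 1.13 of the RAR transcripts in WT and 82.6% ± 2.58 in MLXKO testes (SD, n = 3 each), with overlapping values, 78.4% to 80.5% in WT and 80.5% to 85.5% in MLXKO libraries. *Rxrb* made up 37.4% ± 1.21 and 34.4% ± 0.892 of the RXR transcripts (SD, n = 3 each), and *Rxra* 57.3% ± 1.62 and 62.1% ± 1.59 (SD, n = 3 each).

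*Stra8*, which germ cells need to start meiosis and which is named for its response to retinoic acid, is on the plus strand at chr6:34920163-34939344. Its level was 11.2, 10.2 and 12.2 CPM in WT1, WT2 and WT3, from 160 to 217 counts, and 14.9, 12.6 and 13.1 CPM in KO1, KO2 and KO3, from 227 to 288 counts. Every MLXKO library was above every WT library, with KO1 the highest. The means were 11.2 ± 1.03 and 13.5 ± 1.20 CPM (mean ± SD of 3 libraries each), which is an LFC of 0.27 (SE 0.11, 95% interval 0.03 to 0.50), higher in 3 of 3 pairs. The adjusted p was 0.0598 by edgeR, on the far side of the threshold of 0.05. With littermates entered as a replicate block it was 0.0465 in edgeR and 0.346 in DESeq2. It was 0.0475 without WT3 and 0.0112 with library size alone, where the LFC was 0.41 (edgeR). *Stra8* was therefore not called, and the call turned on the fit.

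The window before the RefSeq start of *Stra8* held 2 AGGTCA half-sites. At least 2 copies were found in 1.36% of all windows and at least 1 in 14.03%. They are shown because the gene is the pathway's readout in germ cells, each with the surrounding bases at chr6:34920742-34920771 and chr6:34920898-34920927 on the plus strand. The half-sites, in capitals, lie 194 to 189 and 38 to 33 bases before the start, and the GENCODE annotation counts this window as exonic for a transcript that begins further upstream.
Stra8 upstream half-site: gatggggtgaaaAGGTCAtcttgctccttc
Stra8 start-proximal half-site: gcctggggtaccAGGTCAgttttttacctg

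**Figure D3:**
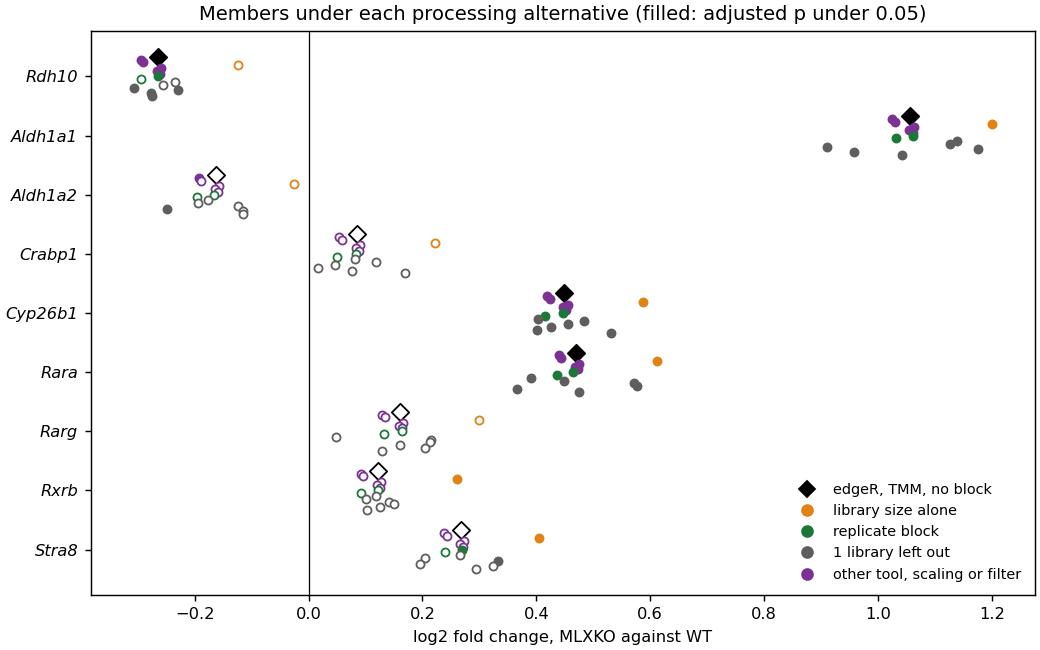
LFC of each member (x axis) in the reported edgeR fit (diamond) and under the 14 alternatives (circles), filled where the adjusted p was under 0.05. *Aldh1a1*, *Cyp26b1* and *Rara* are filled throughout, *Rdh10*, *Aldh1a2*, *Rxrb* and *Stra8* change between filled and open, and no member crosses 0.

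Ordered by level per kilobase in WT testes, the members ran from *Aldh1a2* and *Aldh1a1* down to *Cyp26b1* (6.46 ± 0.369 CPM per kb), *Stra8* (6.22 ± 0.572), *Rxrb* (5.88 ± 0.166), *Rara* (4.79 ± 0.601), *Rdh10* (4.71 ± 0.238), *Crabp1* (4.22 ± 0.217) and *Rarg* (1.05 ± 0.138; SD, n = 3 each). *Cyp26b1* overlapped with *Stra8*, *Stra8* with *Rxrb*, and *Rara* with *Rdh10*, while the other neighbours did not overlap. In MLXKO testes *Cyp26b1* (8.81 ± 0.845 CPM per kb), *Stra8* (7.50 ± 0.664), *Rara* (6.64 ± 0.978) and *Rxrb* (6.39 ± 0.221) overlapped each with the next. *Crabp1* (4.47 ± 0.470) and *Rdh10* (3.92 ± 0.155) overlapped too, and *Rarg* stayed the lowest (1.17 ± 0.0634; SD, n = 3 each).

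The rest of the pathway was represented by 46 further genes, of which 44 had a row and 33 were tested. Of these, 14 were higher, 4 lower and 15 not past the threshold, against 24.8% and 20.6% of all genes tested. Of the genes of retinol uptake, binding and storage, 2 of 4 tested were higher and 0 lower. *Stra6*, the membrane receptor for retinol uptake, had an LFC of 0.45 (adjusted p = 0.0157 by edgeR) and *Lpl*, a lipase that can release retinyl esters from lipoproteins, an LFC of 0.67 (adjusted p = 0.0459 by edgeR). The call for *Stra6* was lost without WT3 (LFC 0.37), and that for *Lpl* without WT1, WT2, KO2 or KO3 (LFC 0.43 to 0.72). Both were also lost in DESeq2, at adjusted p = 0.0620 and 0.0764, and at 0.170 and 0.155 with the replicate block. *Rbp4* and *Lrat* did not pass, and the median LFC of these 4 genes was 0.21.

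The oxidoreductases that interconvert retinol and retinaldehyde moved in both directions, with 4 of 9 genes tested higher, 3 lower and a median LFC of -0.04. *Adh1*, an alcohol dehydrogenase, rose from 6.42 ± 1.24 to 22.1 ± 6.16 CPM (LFC 1.79, adjusted p = 6.49e-05 by edgeR), and *Adh5*, best known as a formaldehyde-clearing enzyme, from 26.6 ± 1.98 to 47.0 ± 6.60 CPM (LFC 0.83, adjusted p = 1.10e-04 by edgeR; SD, n = 3 each). *Dhrs3*, which turns retinaldehyde back into retinol, had an LFC of 0.85 (adjusted p = 6.72e-04 by edgeR), and *Rdh13*, named here after its value was seen, one of 0.93 (adjusted p = 0.00175 by edgeR). On the lower side, *Rdh11*, the most abundant gene of the list per kilobase, went from 222 ± 2.62 to 184 ± 15.6 CPM (LFC -0.27, adjusted p = 0.00382 by edgeR) and *Dhrs4* from 31.0 ± 1.28 to 23.9 ± 1.07 CPM (LFC -0.37, adjusted p = 0.00145 by edgeR; SD, n = 3 each). *Adh4* had an LFC of -0.25 (adjusted p = 0.0474 by edgeR), and lost its call whichever library was left out (LFC -0.29 to -0.20). *Rdh10* was thus not alone in falling among the dehydrogenases.

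All 3 further genes listed with the retinaldehyde dehydrogenases were higher. *Aldh1a3* had an LFC of 0.75 (adjusted p = 0.00460 by edgeR), *Aldh1a7* that given above. *Aldh8a1* had 0.40 (adjusted p = 0.0496 by edgeR, lost whichever library was left out, at LFCs of 0.35 to 0.47). What each enzyme oxidises was not measured. Of the binding proteins, *Fabp5*, a fatty acid binding protein that can also carry retinoic acid, rose from 6.49 ± 0.706 to 19.0 ± 1.71 CPM (SD, n = 3 each; LFC 1.56, adjusted p = 4.77e-06 by edgeR), whereas *Crabp2* had too few counts to be tested. Of 9 receptor coregulators only *Ncoa2*, a coactivator, was called (LFC 0.20, adjusted p = 0.0151 by edgeR), and it was not called without WT1, WT2 or KO3 (LFC 0.16 to 0.19). Nor was it called in DESeq2 with the replicate block (LFC 0.17, adjusted p = 0.0706). The median LFC of that list was 0.05.

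Genes known to respond to retinoic acid were counted as a list of 11, with 7 tested, 4 higher, 1 lower and a median LFC of 0.45. Of all genes tested, 24.8% were higher and 20.6% lower, with a median LFC of 0.03. So short a list gives no result about a retinoic acid response. Of the 4, *Tgm2*, a transglutaminase, rose from 17.3 ± 4.90 to 67.9 ± 9.24 CPM (LFC 1.97, adjusted p = 8.91e-06 by edgeR) and *Kit*, the receptor that marks differentiating spermatogonia and is also made by Leydig cells, from 22.4 ± 3.09 to 39.2 ± 6.70 CPM (LFC 0.81, adjusted p = 5.24e-04 by edgeR; SD, n = 3 each). The others were *Dhrs3* and *Stra6*, already counted in the lists above. *Rec8*, a meiotic cohesin subunit, went from 92.0 ± 2.28 to 80.2 ± 4.93 CPM (SD, n = 3 each; LFC -0.20, adjusted p = 0.0125 by edgeR), a call lost without WT2 (LFC -0.19) or KO2 (LFC -0.14). It was also lost with library size alone, where the LFC was -0.06 (adjusted p = 0.367 by edgeR). The retinoic acid targets *Cyp26a1* and *Rarb* did not pass. The genes of this list that rose are also expressed by somatic cells, and *Rec8* is a germ cell gene. The part of cell type shares in these changes was not tested. *Meiosin*, the partner of *Stra8*, was not analysed here.

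**Figure D4:**
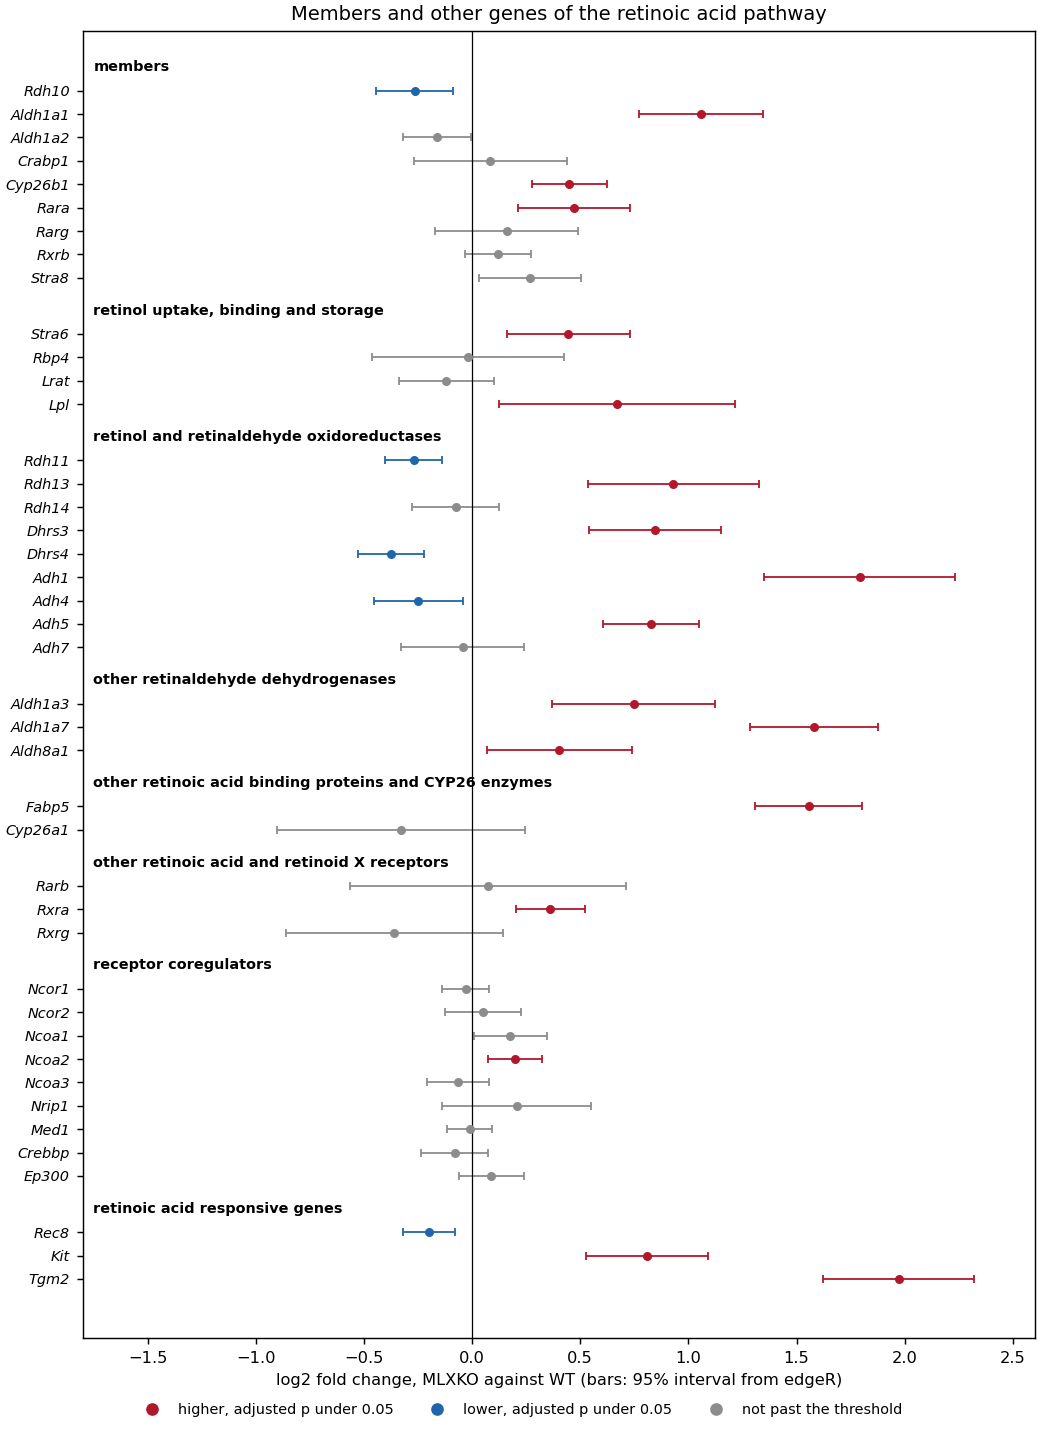
LFC of the 9 members and the 33 other pathway genes tested (x axis) with 95% intervals, grouped by role and drawn once where a gene is on several lists. Red and blue mark the 17 higher and 5 lower genes past the threshold, and grey those that did not pass.

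Marker levels of the cell types that express the members moved with genotype, as values to be read beside those above. The summed Sertoli cell markers were at 1362 to 1415 CPM in WT and 2009 to 2423 CPM in MLXKO libraries (12 of 12 higher, median LFC 0.72), and the Leydig cell markers at 1027 to 1073 and 2127 to 2790 CPM (8 of 8 tested higher, median LFC 1.05). Of the peritubular myoid cell markers 5 of 7 were higher and 1 lower (median LFC 0.56). Their sum, 318 to 376 and 321 to 337 CPM, was 75.1% *Actg2* in WT, the 1 listed gene called lower. The other 6 stood at 79.7 to 94.1 and 120.1 to 132 CPM. *Actg2* had an LFC of -0.39, against 0.33 to 0.74 for the other 6. Which cells its transcript came from was not measured, so the sum may not stand for peritubular myoid cells. The macrophage markers were at 76.0 to 79.7 and 146 to 153 CPM (8 of 8 tested higher) and the endothelial markers at 43.1 to 52.6 and 60.5 to 66.2 CPM (2 of 7 higher). None of the markers was at 0 in all libraries. The LFC of *Aldh1a1*, 1.06, was next to the Leydig cell median, that of *Rara*, 0.47, was at the low end of the Sertoli cell markers, which ran from 0.47 to 1.14, and those of *Rxrb* and *Rdh10* lay below all of them.

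Of the germ cell lists, the 12 spermatocyte markers were at 1890 to 1937 CPM in WT and 1648 to 1729 CPM in MLXKO libraries (0 higher, 8 lower, median LFC -0.19). The differentiating spermatogonia list was at 700.1 to 729 and 574 to 630.2 CPM (*Kit* higher, *Dmrtb1* lower, 4 of 6 not past the threshold, median LFC -0.09). *Dmrtb1* made up 90.6% of that sum in WT, and the other 5 markers stood at 63.7 to 69.9 and 77.6 to 85.3 CPM. Among these 5, only *Kit* had a positive LFC. Undifferentiated spermatogonia markers were at 119 to 129 and 121 to 126 CPM (1 of 8 tested higher, 1 lower, median LFC 0.00), with overlapping sums. The round spermatid list was at 2430 to 2503 and 1862 to 2022 CPM (7 of 8 lower).

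Each member was also set against the summed markers of its cell types as a log2 ratio per library, 14 ratios in all. With 3 against 3 libraries an exact two-sided permutation test cannot go below 0.1, so only the values are described. *Rdh10* against Sertoli cell markers was at -6.15 ± 0.099 in WT and -7.12 ± 0.091 in MLXKO testes, lower by 0.96 without overlap, and *Rxrb* on the same scale lower by 0.58. *Rara* against these markers differed by -0.23 with overlap. *Aldh1a1* was 0.36 higher against Sertoli cell markers, without overlap, and 0.19 lower against Leydig cell markers, with overlap. That overlap came from WT3, at -2.30, with WT1 and WT2 at -1.83 and -1.89 and the MLXKO libraries at -2.22 to -2.16. Without *Cyp17a1*, the most abundant Leydig cell marker, the difference was -0.275, also with overlap. *Cyp26b1* was 0.55 higher against peritubular myoid cell markers, without overlap, but that sum is mostly *Actg2*. Against the other 6 markers, a comparison added after the data were seen, it differed by -0.07, with overlap.

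*Aldh1a2* differed from the spermatocyte markers by 0.02 on this scale, with overlap. *Stra8* was at -7.42 ± 0.148 in WT and -6.96 ± 0.091 in MLXKO testes against spermatocyte markers, higher by 0.46, and higher by 0.26 against the undifferentiated spermatogonia list (SD, n = 3 each), both without overlap. *Rarg* and *Crabp1* were 0.16 and 0.07 higher against undifferentiated spermatogonia, with overlap. Against differentiating spermatogonia the ratios of *Stra8*, *Rarg* and *Crabp1* were 0.54, 0.43 and 0.35 higher without overlap, in a sum that is mostly *Dmrtb1*. With that gene left out they differed by 0.00, -0.11 and -0.19, all with overlap. The markers then left include *Kit*, the only one of the list with a positive LFC (0.81). *Sohlh1*, *Sohlh2*, *Dnmt3b* and *Prss50* had LFCs of -0.21, -0.07, -0.10 and -0.09. Each sum thus leans on a single gene, and neither shows that these members kept step with differentiating spermatogonia. The part of cell type shares in the change of any member was not tested.

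**Figure D5:**
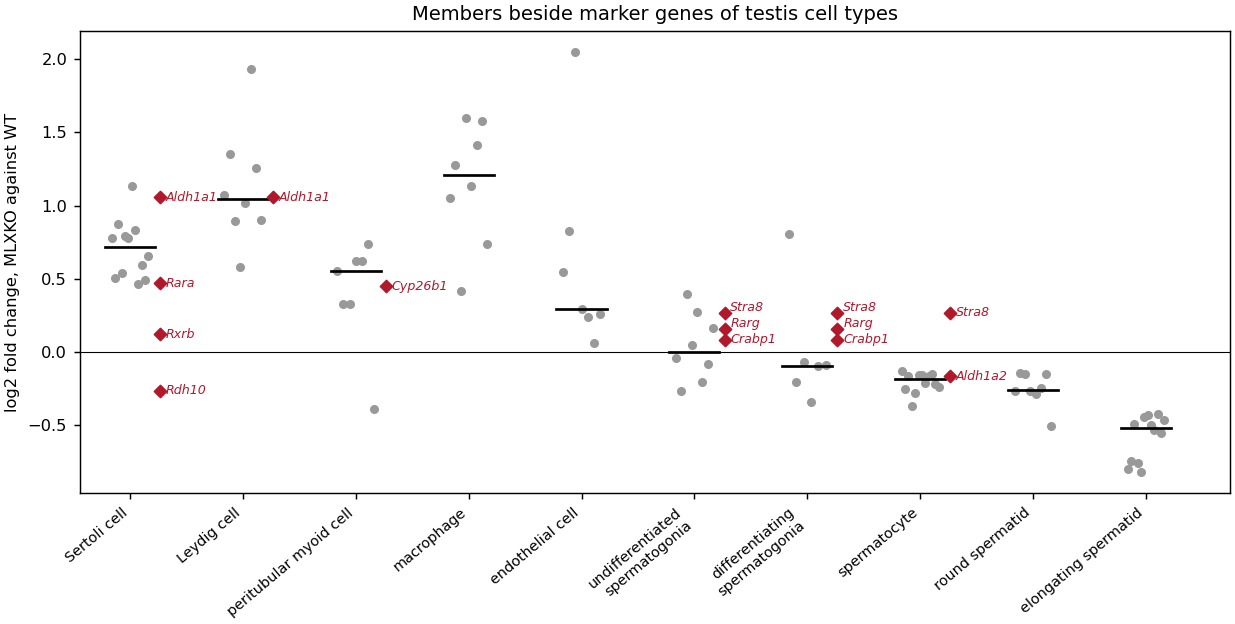
LFC (y axis) of the tested marker genes of 10 testis cell types (grey points, black line at the median) with the members known from each type beside them (red). Sertoli, Leydig and macrophage markers lie above 0 and spermatid markers below it, *Aldh1a1* is level with the Leydig cell median, and *Stra8* is above all spermatocyte markers.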

How the data were processed

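RNA from whole testes of 3 WT and 3 MLXKO littermates was sequenced as paired reads of 50 bases. The authors aligned reads to mm10 with TopHat and deposited raw counts per gene symbol. The counting tool and annotation are not given in the sources used here. Further columns that the authors deposited give their own test (mean signal, log2 fold change with its standard error, score and p-values), which was not used. The ChIP-Seq samples were not analysed here.

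Of 17933 rows, 17931 distinct symbols were kept, and 14640 passed edgeR's filter (minimum count 10). Counts were scaled by TMM and fitted with edgeR 4.0.16 (R 4.3.3) by its quasi-likelihood test, with genotype alone in the model and p-values adjusted by Benjamini-Hochberg over all genes tested. The test is two-sided with a threshold of 0.05. Intervals are at 95%. The scripts were tested on simulated data. Exon lengths are unions of GENCODE M21 exons, and coordinates are those of GRCm38. The alternatives were DESeq2 1.42.0, other scalings and filters, the littermate pair as a replicate block, and leaving out 1 library at a time.

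The sample titles name paired replicates and the methods littermate pairs. Deviations from group means correlated at 0.145, 0.0363 and 0.121 between littermates and at most at 0.0330 between other libraries. Within each genotype no library repeated another, as their counts differed beyond sampling noise. The members and the gene and marker lists were chosen with earlier results of these data known, and 1 gene of the pathway lists is not reported here. Named are all members, all genes past the threshold in lists with at most 6 such genes, otherwise the 3 with the smallest adjusted p in each direction, and every other RAR, RXR, RALDH (retinaldehyde dehydrogenase) and CYP26 gene. At 56 counts or more per library, counting error is small for abundant members and is largest for *Crabp1* and *Rarg*.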

Additional observations from a re-analysis of the deposited data

How the results depend on the processing

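The 9 members under 14 alternatives gave 126 LFCs, of which 116 kept their direction and side of the threshold, 6 gained a call, 4 lost it and 0 turned direction. *Aldh1a1* (LFC 0.91 to 1.20), *Cyp26b1* (0.40 to 0.59) and *Rara* (0.37 to 0.61) passed under every one. The members called higher numbered 3, but 5 with library size alone, where *Stra8* and *Rxrb* were added, and 3 to 4 when 1 library was left out. The members called lower numbered 1, but 2 in DESeq2, 0 with library size alone, 0 with the replicate block in DESeq2, and 0 to 2 when 1 library was left out. Against the same tool without it, the replicate block changed the calls of *Stra8* (edgeR), *Rdh10* (DESeq2) and *Aldh1a2* (DESeq2), and of no other member. For *Aldh1a2* the adjusted p in DESeq2 was 0.0400 without the block and 0.0666 with it. Of all calls, 54.7% were higher in the reported fit and 80.8% with library size alone.

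The other pathway genes called higher numbered 14, and 11 to 16 when 1 library was left out. Their number was below that range in DESeq2 with the replicate block, and above it with library size alone. Those called lower numbered 4, but 2 with library size alone and 2 to 3 when 1 library was left out. *Adh4*, *Aldh8a1*, *Lpl*, *Ncoa2*, *Rec8* and *Stra6* lost their calls under some alternatives, in 39 of 294 values over 21 genes. *Rarb* changed sign, to -0.10 without WT2 and -0.06 without KO3, in a range of -0.10 to 0.32 when 1 library was left out. The causes were not tested. Ratios of members to summed markers were also taken without each list's most abundant marker, chosen after seeing the data. Depth limits *Crabp1* and *Rarg* most among the members, and 3 animals a group limit every test.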
